A study of Mus musculus with 4 samples.

Results

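Capillary blood endothelial cells were examined in single-cell RNA sequencing of the mouse colon. They were chosen by counts of 20 genes. A barcode had to show at least 3 of the 8 endothelial genes Pecam1, Cdh5, Kdr, Plvap, Flt1, Egfl7, Esam and Emcn, and no count of Ptprc, Epcam, Col1a1, Prox1, Rgs5 or Notch3, which mark leukocytes, epithelium, fibroblasts, lymphatic endothelium and the mural cells that wrap vessels. It also had to hold at least 1 count of Kdr, Esm1 or Cd300lg, and counts of fewer than 2 of the venular genes Ackr1, Selp, Vwf and Sele. This left 2181 capillary cells of 38852 cells with 200 genes or more and no more than 25% of counts from mitochondrial genes (kept cells below). The same rule gave 96 venular cells and 232 endothelial cells that had no count of the 3 capillary genes, so that 2509 cells were endothelial in all. Colon from 2 groups of mice was compared, with 2 libraries each: controls, labelled only as such, and animals that received CCl4 (carbon tetrachloride, which injures the liver) for 6 weeks, starting at 6 weeks of age. Nothing in the labels ties a library to a number of animals, so p-values measure the spread between libraries, which may be technical.

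Capillaries of the gut mucosa run beneath the epithelium and take up absorbed water and nutrients. Their endothelium is largely of the fenestrated kind: thin, with pores closed by diaphragms built from the protein of Plvap, and kept in that state by vascular endothelial growth factor (VEGF) acting on the receptor Kdr. Esm1 encodes a secreted proteoglycan typical of VEGF-stimulated and sprouting endothelium, and Cd300lg a surface mucin of capillaries. The comparison addresses what differs in these cells between mice with and without CCl4.

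The 4 libraries gave 551 and 571 capillary cells in control 1 and control 2 and 531 and 528 in CCl4 1 and CCl4 2. Their median depth was 3293 and 3170 counts per cell in the controls and 3901 and 3779 in the CCl4 libraries, so CCl4 cells were read more deeply. The summed counts of capillary cells were 2316791 and 2340583 against 2845826 and 2635350. The median mitochondrial share was 3.48% and 3.64% against 4.15% and 3.69%. Barcodes are named by running numbers, so shared barcodes could not be counted across libraries. Of the capillary cells, 0 had the same counts in all genes as another.

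The defining genes are given as a description, since they chose the cells. On the scale of CPM, a gene's counts relative to all counts of a library's summed capillary cells after TMM scaling, Kdr stood at 2493 and 2308 in the controls and 2141 and 2146 in the CCl4 libraries. Plvap stood at 4745 and 4481 against 4333 and 3984, Cd300lg at 433 and 444 against 468 and 434, and Esm1 at 522 and 508 against 398 and 452. When every cell was thinned to 1000 counts, Kdr was seen in 82.0% and 80.4% of control and in 81.0% and 80.7% of CCl4 capillary cells. In cells with an Epcam count and none of Ptprc, Col1a1, Pecam1 or Cdh5, thinned in the same way, Kdr was seen in 0.580%, 0.608%, 0.454% and 0.546%, which sets the background. Esm1 was patchier, at 28.1% and 26.6% of thinned control and 23.5% and 25.2% of thinned CCl4 cells (44.8%, 41.7%, 41.1% and 46.2% before thinning). Of marker genes the rule did not use, Ly6c1 lay between 4478 and 5096 CPM, Rgcc between 718 and 919, and Gpihbp1, the capillary anchor of lipoprotein lipase, between 73.8 and 116. Cells just inside the rule, with exactly 3 endothelial genes, numbered 15, 21, 15 and 27, and those just outside, with exactly 2, numbered 15, 19, 13 and 22.

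The rule also let in cells with markers of other vessels and tissues. At least 3 of 7 arterial markers, among them the connexin genes Gja4 and Gja5, were found in 13.2% and 13.8% of control and 20.5% and 19.7% of CCl4 capillary cells. After thinning to 1000 counts these shares were 4.90% and 4.20% against 4.52% and 4.92%, and the groups overlapped. Lymphatic markers such as Lyve1 and Mmrn1, 2 or more together, occurred in 3.27%, 2.98%, 3.58% and 3.98%, although the lymphatic gene Prox1 had to be at 0. Cells with at least 2 markers of a lymphatic, mural, smooth muscle, fibroblast, leukocyte, macrophage, T cell, B cell or glial set, or with 1% or more immunoglobulin counts, made up 8.53%, 7.88%, 8.66% and 10.2%. The calls below are also given without these cells, an alternative chosen after the data were seen. Epithelial markers, 2 or more together, were found in 3.63% and 5.43% of control and 18.8% and 17.2% of CCl4 capillary cells. At least 1 red cell marker was found in 6.72% and 7.01% against 18.6% and 16.7%.

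Capillary cells took a smaller share of kept cells in the CCl4 libraries. They made up 6.39% and 6.51% of control and 4.81% and 5.07% of CCl4 cells, or 6.45% ± 0.0834 against 4.94% ± 0.185 (SD, n = 2 each). The groups did not overlap, and the exact two-sided permutation test over libraries gave p = 0.333, the smallest that 2 libraries against 2 allow, so no threshold of 0.05 can be met. Within all gated endothelial cells the capillary share was 84.8% and 88.9% against 85.5% and 88.6%, and the groups overlapped (exact permutation p = 1). Kept cells with an Epcam count were 27.4% and 27.1% of control and 43.5% and 42.7% of CCl4 cells. Among kept cells without an Epcam count, capillary cells were 8.81% and 8.93% against 8.51% and 8.85%, which overlapped.

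The exclusion genes removed far more endothelial barcodes from the CCl4 libraries. Before they were applied, 751, 766, 987 and 961 barcodes met the rest of the rule, 8.71% and 8.73% of kept cells in the controls and 8.94% and 9.23% in the CCl4 libraries, so the order of the groups turned round. Exclusion took away 26.6% and 25.5% of them in the controls and 46.2% and 45.1% in the CCl4 libraries. Rgs5, a regulator of G-protein signalling that marks pericytes, accounted for 7.59% and 8.75% against 22.8% and 22.1%. Notch3, the Notch receptor of mural cells, was present in 4.26% and 4.96% against 14.99% and 14.05%, and Epcam in 9.85% and 8.09% against 19.1% and 21.02%. Col1a1 was present in 5.86% and 5.35% against 6.89% and 7.60%. Ptprc was present in 2.26%, 2.74%, 2.53% and 2.50% and Prox1 in 5.33%, 4.70%, 5.88% and 4.68%, with overlap between groups in both. Rgs5, Notch3, Epcam and Col1a1 each separated the groups without overlap, again at the smallest exact permutation p of 0.333.

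**Figure D1:**
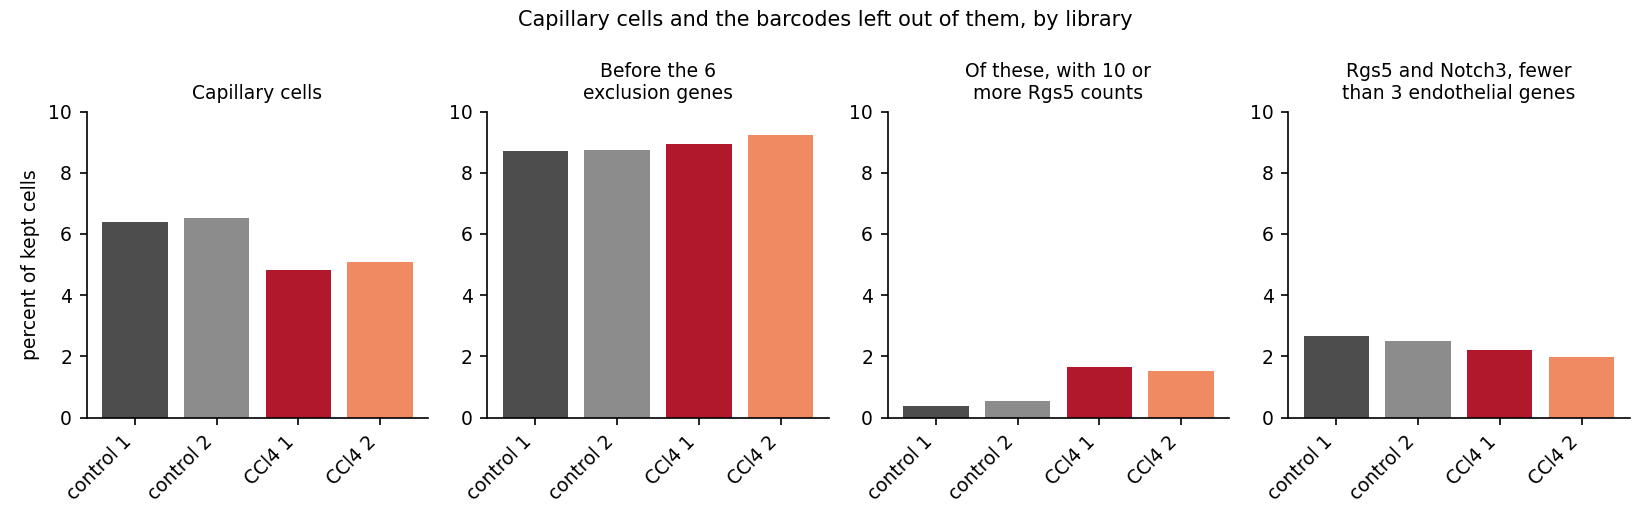
Percent of kept cells (vertical axis) that were capillary cells, that met the rule before its 6 exclusion genes, that were among these with 10 or more Rgs5 counts, and that had Rgs5 and Notch3 with fewer than 3 endothelial genes, one bar per library. The capillary share was lower in both CCl4 libraries (4.81% and 5.07%), while the share before exclusion was slightly higher (8.94% and 9.23%).

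Barcodes that joined endothelial genes with 10 or more Rgs5 counts numbered 32 and 48 in the controls and 181 and 158 in the CCl4 libraries. That was 0.371% and 0.547% of kept cells against 1.64% and 1.52%, a ratio of group means of 3.44. Their median held all 8 endothelial genes in every library. Their median depth was 10090.5, 9489, 11286 and 11016 counts, against 3170 to 3901 for the capillary cells. At least 2 of the 6 pericyte genes Pdgfrb, Kcnj8, Cspg4, Abcc9, Higd1b and Cox4i2 accompanied an Rgs5 count in 35, 41, 167 and 145 barcodes. Barcodes with Rgs5 and Notch3 but fewer than 3 endothelial genes, by contrast, were 2.66% and 2.51% of kept cells in the controls and 2.21% and 1.98% in the CCl4 libraries. Scrublet, which scores likely doublets, placed 16, 8, 24 and 16 of the barcodes with 10 or more Rgs5 counts in its top 6%. Whether 2 cells shared a droplet was not tested. These barcodes are not among the 2181 cells described here.

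In the capillary cells, 31 of 11574 genes tested passed an adjusted p of 0.05 in edgeR's quasi-likelihood test (called below), 0.268% of all, with 26 higher and 5 lower in the CCl4 libraries. At an unadjusted p under 0.05 there were 985. Among the calls, Sox18 and Psmb9 fell, and Tmem252, Acer2, Mxra8 and Thbs1 rose. Of these, Sox18, Tmem252 and Acer2 stood higher in capillary cells than in Epcam, Col1a1 and Ptprc cells of every library, while Mxra8 and Thbs1 stood higher in Col1a1 cells. Venular cells held more Tmem252 and Acer2 than capillary cells did. The part of capillary cells with 1 venular gene in the rises of Tmem252 and Acer2 was not tested. Most other calls were transcripts that stood far higher in cells with an Epcam count.

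**Figure D2:**
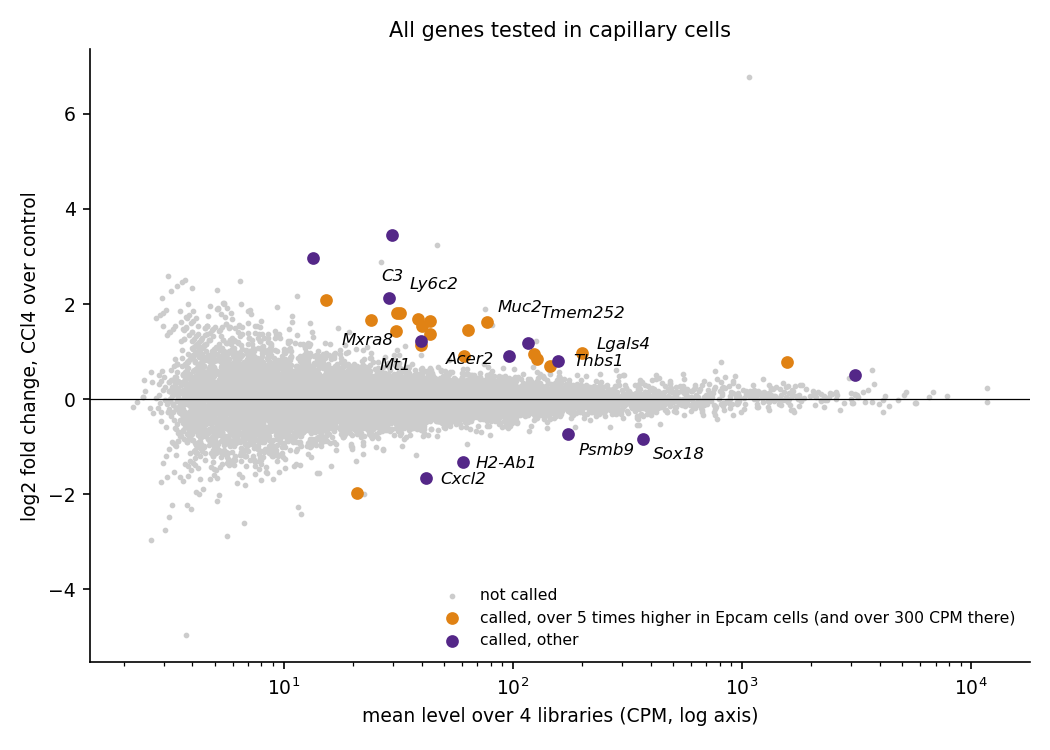
Each point is 1 of 11574 genes, with its mean level over the 4 libraries in CPM (horizontal, log axis) and its log2 fold change of CCl4 over control (vertical). Called genes are coloured, and 19 of the 31 (orange) stood more than 5 times higher, and above 300 CPM, in cells with an Epcam count of the control libraries.

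Sox18, a SoxF transcription factor of endothelial specification, stood at 466 and 481 CPM in the controls and at 289 and 243 CPM in the CCl4 libraries. Both CCl4 libraries lay well below both controls. The log2 fold change was -0.83 ± 0.12 (SE), with an edgeR adjusted p of 0.00304. Without the cells that carried other types' markers it was -0.75 (edgeR adjusted p = 0.0031), from 472 and 482 CPM to 305 and 262. Sox18 was called in all 15 alternative fits in which it had an adjusted p, with log2 fold changes from -0.96 to -0.70. Sox18 stood at 0.27 to 0.65 CPM in Epcam cells, 0.34 to 0.92 in Col1a1 cells and 0.42 to 2.41 in Ptprc cells. The other SoxF genes were measured and not called: Sox7 stood at 82.1, 71.7, 76.4 and 80.9 CPM and Sox17 at 97.9, 96.9, 94.7 and 77.8. The Sox18 gene lies on chromosome 2, 181669836 to 181671640, minus strand (GRCm38, GENCODE M21).

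Mef2c, a MADS-box transcription factor active in endothelium, stood at 508 and 528 CPM against 378 and 346, and the groups did not overlap. The edgeR adjusted p was 0.0853 over all capillary cells and 0.0431 without the cells with other types' markers, where the log2 fold change was -0.54. DESeq2 called it (adjusted p = 0.000718). DESeq2 gave an adjusted p to only 579 of the 11574 genes, here and below. Its adjusted values and those of edgeR therefore cover unlike sets of genes. Mef2c, Sox7, Psmb8, Psmb10, Apln, Hspa8, Dnaja1 and Hsph1 fall outside the rule for named genes and were chosen after their values were seen.

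Psmb9, the beta-1i subunit of the immunoproteasome, which trims peptides for MHC class I, stood at 220 and 217 CPM in the controls and 143 and 119 in the CCl4 libraries. The groups were clearly apart, with a log2 fold change of -0.73 ± 0.12 (SE) and an edgeR adjusted p of 0.0096. The call was lost without CCl4 2 (log2 fold change -0.60). It was lost too when arterial-marker cells (-0.70) or epithelial-marker cells (-0.67) were removed along with those of other types. The other immunoproteasome subunits did not pass edgeR's test, Psmb8 at 413 and 379 against 309 and 291 CPM and Psmb10 at 261 and 242 against 185 and 185 CPM. In Epcam cells Psmb9 stood at 61.0 and 55.0 CPM against 21.97 and 23.9, and in Col1a1 cells at 38.2 and 37.3 against 25.2 and 27.9. Psmb9 (chromosome 17, 34181987 to 34187764, minus strand) overlaps Tap1 on the plus strand. Use of strand in counting is not stated in the labels, so counts of overlapping genes are uncertain.

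Tmem252, which encodes a small membrane protein and belongs to the list of capillary genes, stood at 65.9 and 77.2 CPM in the controls and 176 and 148 in the CCl4 libraries. The groups did not overlap. The log2 fold change was 1.18 ± 0.15 (SE), with an edgeR adjusted p of 0.00112. A count was found in 13.8% and 14.7% of control and 28.4% and 27.5% of CCl4 capillary cells. After thinning to 1000 counts these shares were 4.54% and 4.73% against 10.7% and 9.28%, so the groups were apart at equal depth as well. It was called in all 14 alternative fits that gave it an adjusted p (0.97 to 1.30). Venular cells held more of it, 633 and 455 CPM against 855 and 461, with overlap between groups.

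Acer2, an alkaline ceramidase that releases sphingosine in the Golgi, stood at 65.0 and 68.4 CPM in the controls and 120 and 130 in the CCl4 libraries. The groups did not overlap. The log2 fold change was 0.91 ± 0.14 (SE), with an edgeR adjusted p of 0.00633. Acer2 was called in all 14 alternative fits that gave it an adjusted p (0.68 to 0.97). In Epcam cells it stood at 12.2, 12.4, 13.99 and 13.98 CPM, below every capillary value. Venular cells held more of it than capillary cells, with values given below.

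Thbs1, which encodes the matricellular inhibitor of angiogenesis thrombospondin 1, stood at 117 and 114 CPM in the controls and 204 and 197 in the CCl4 libraries. Both CCl4 values lay above both controls, with a log2 fold change of 0.79 ± 0.12 (SE) and an edgeR adjusted p of 0.0051. It fell outside the rule for named genes and was chosen after its values were seen. In other cells of the same libraries Thbs1 stood at 379 and 436 CPM against 461 and 557 in Col1a1 cells and at 47.6 and 53.3 against 85.9 and 110 in Ptprc cells. The part of these cells' RNA in the capillary value was not tested. Thbs1 overlaps Gm29233 on the minus strand, so its counts carry the same uncertainty as those of Psmb9.

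Mxra8, which encodes an adhesion protein with immunoglobulin-like domains, stood at 25.5 and 21.8 CPM in the controls and 54.1 and 57.0 in the CCl4 libraries. The groups did not overlap, with a log2 fold change of 1.23 ± 0.21 (SE) and an edgeR adjusted p of 0.0102. Mxra8 is a fibroblast gene too, at 543, 482, 521 and 523 CPM in Col1a1 cells, where the groups overlapped. Without the cells that carried fibroblast or other markers the capillary values were 21.8 and 20.99 against 56.2 and 54.3 CPM, with a log2 fold change of 1.37. With arterial-marker cells removed as well the log2 fold change was 1.21, close to that over all capillary cells, but it was not called (edgeR adjusted p = 0.0611). The gene overlaps the antisense transcript Mxra8os.

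**Figure D3:**
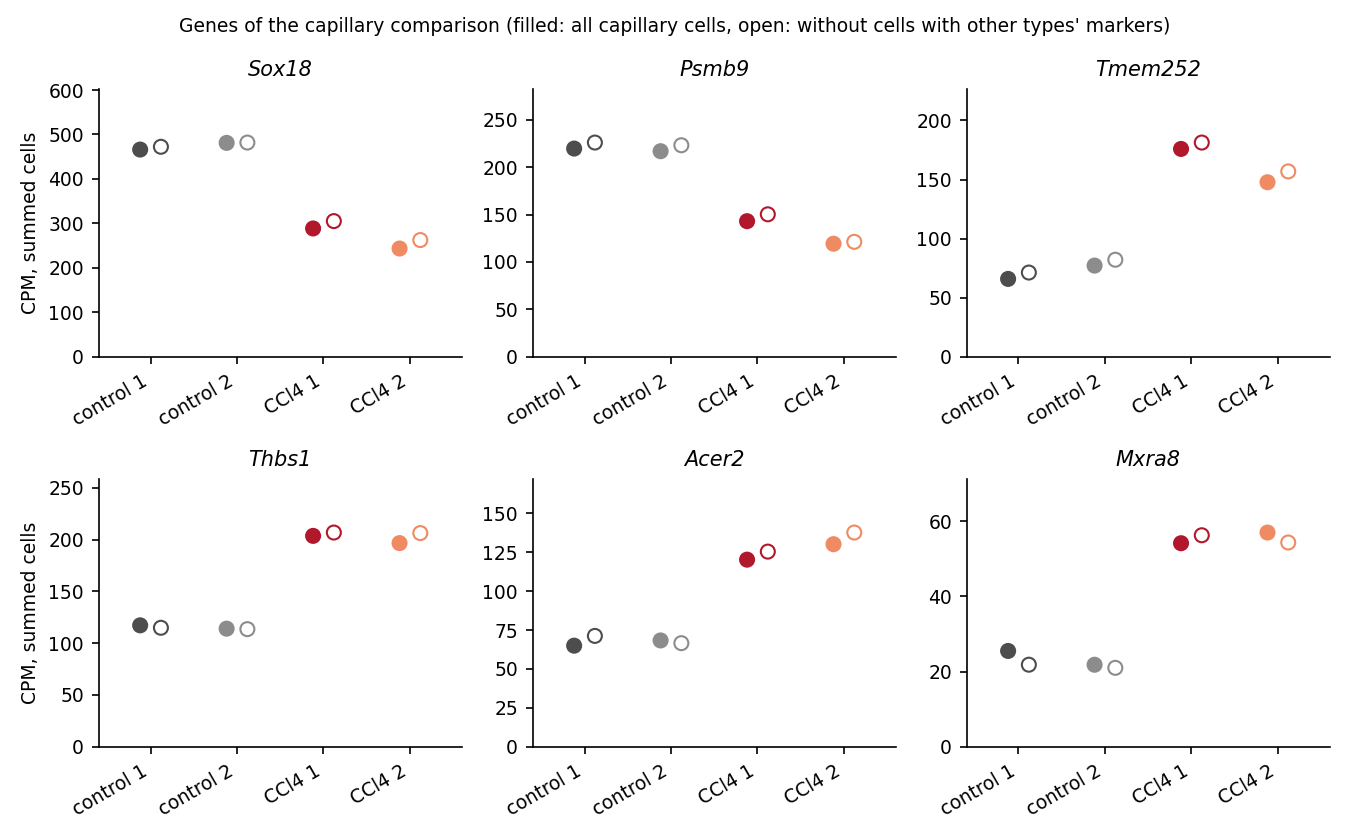
Level in CPM (vertical axes, from 0) of Sox18, Psmb9, Tmem252, Thbs1, Acer2 and Mxra8 in the summed capillary cells of each library; filled points hold all capillary cells and open points leave out cells with markers of other types. In every panel both CCl4 libraries lie on the same side of both controls, for filled and for open points. Epithelial and arterial markers left no cell out of the open points.

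The starts of Tmem252 and Acer2 are shown because these 2 genes rose in every fit that gave them an adjusted p and stood higher in capillary cells than in Epcam, Col1a1 and Ptprc cells. Venular cells held more of both than capillary cells did. The 2 genes were chosen after their values were seen. The bases lie directly before the start, 5′ to 3′, plus strand, from RefSeq on GRCm38.p6, which held a promoter for 20 of the 28 called genes outside uncertain gene models. Capitals mark TATATAA, the TATA box, and CCCGCCC, the GC box bound by Sp1-type factors, searched on both strands. The first window is chr19:24673758-24674007 and the second is chr4:86874164-86874395.
Tmem252: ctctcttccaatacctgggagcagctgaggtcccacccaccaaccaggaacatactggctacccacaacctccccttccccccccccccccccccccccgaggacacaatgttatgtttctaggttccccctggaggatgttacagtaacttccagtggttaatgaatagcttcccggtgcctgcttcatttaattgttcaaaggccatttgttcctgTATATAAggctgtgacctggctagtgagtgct
Acer2: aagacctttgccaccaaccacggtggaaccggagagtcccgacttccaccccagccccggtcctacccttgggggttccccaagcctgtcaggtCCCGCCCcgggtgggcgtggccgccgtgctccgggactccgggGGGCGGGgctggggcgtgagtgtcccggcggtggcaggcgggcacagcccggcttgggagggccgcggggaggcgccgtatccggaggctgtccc

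The Tmem252 window held 1 TATATAA that begins 32 bases before the start and 0 CCCGCCC, and the Acer2 window held 2 CCCGCCC and 0 TATATAA. The Acer2 window is the shorter, at 232 bases. In windows of 250 bases before the start, 3.04% of 32851 RefSeq promoters held TATATAA and 23.4% held CCCGCCC. Neither window held TTCNNNGAA, the pattern of Stat factors, which 7.02% of promoters held. These matches are a description of letters.

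Transcripts made by epithelium were higher in the capillary cells of both CCl4 libraries. All 21 tested members of a list of 24 such transcripts had positive values, 18 of them without overlap between groups (19.4% of all genes tested lay higher without overlap), and 9 were called. Muc2, the main mucin of goblet cells, stood at 34.3 and 41.5 CPM against 129 and 104 (log2 fold change 1.61, edgeR adjusted p = 0.000847). Lgals4 stood at 136 and 135 against 253 and 276, and Krt8, an epithelial keratin, at 78.6 and 90.6 against 163 and 163. Agr2, Cldn7 and Spink4 of the list, and Oit1, which is not in it, rose by log2 fold changes between 1.38 and 1.63. The summed level of the 24 transcripts was 602 and 654 CPM in control and 1201 and 1308 in CCl4 capillary cells. Col1a1 cells held nearly the same, 531 and 582 against 1199 and 1244, and so did Ptprc cells, 654 and 573 against 1273 and 1466. In Epcam cells it was 29106, 29677, 27942 and 29885, with no separation of the groups. The share of all counts that came from Epcam cells was 33.8% and 31.1% against 48.0% and 46.2%. The part of free epithelial RNA in the capillary values was not tested.

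**Figure D4:**
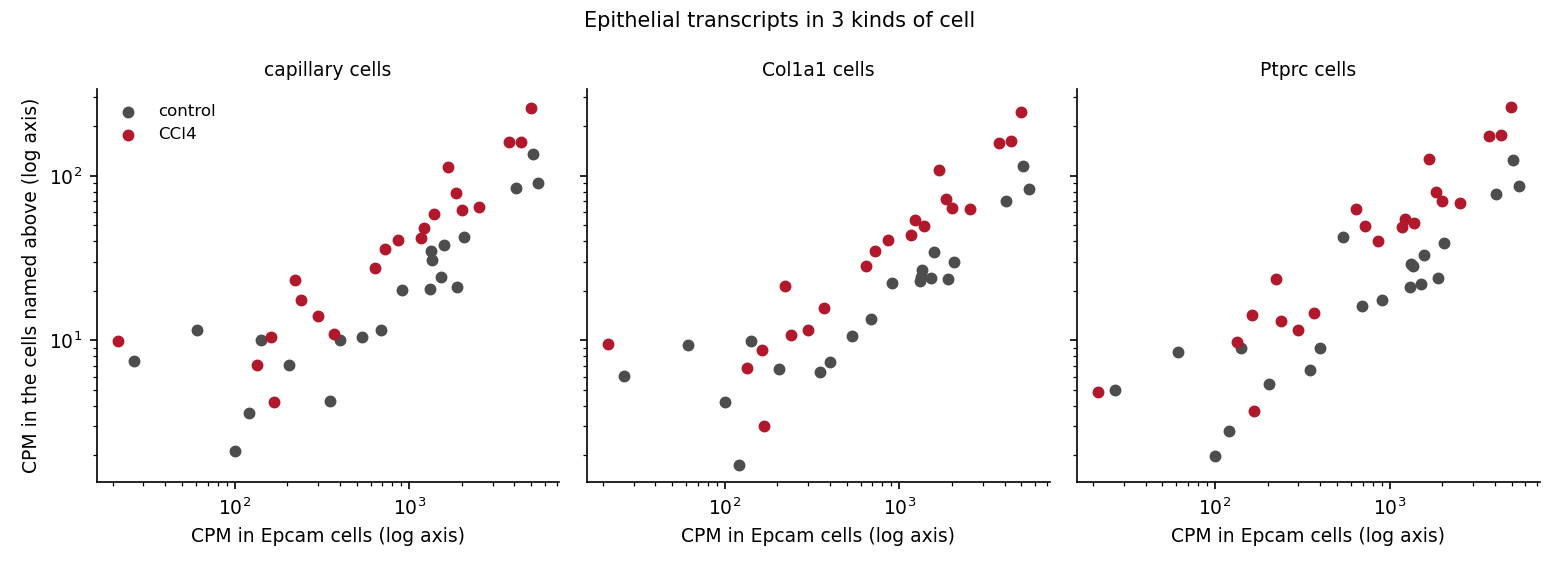
Each point is 1 epithelial transcript in 1 group, with its mean CPM in Epcam cells (horizontal, log axis) and in capillary, Col1a1 or Ptprc cells (vertical, log axis); grey is control and red is CCl4. In capillary cells the mean was higher with CCl4 for all 21 transcripts, as for Lgals4 with 135.5 and 259.5 CPM, but relative to their level in Epcam cells Zg16 and Reg3b were lower.

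Antibody transcripts reached many capillary cells at a low count and a few at a very high one. Over all capillary cells Igha, the IgA heavy chain, stood at 4896, 938, 5039 and 3862 CPM, with overlap between groups (edgeR adjusted p = 0.749), and 3 cells held 87.3%, 37.2%, 95.7% and 95.9% of its counts. After thinning to 1000 counts, an Igha count was found in 44.8% and 48.9% of control and 20.2% and 19.7% of CCl4 capillary cells. In thinned Epcam cells these shares were 45.4% and 45.1% against 20.9% and 17.96%, near those of capillary cells. The choice of Epcam cells left out no cell by plasma cell genes. Their summed level of 14 antibody and plasma cell transcripts was 88275 and 74771 CPM in the controls and 19470 and 14424 in the CCl4 libraries. They are therefore not a clean background for Igha. Without the 47, 45, 46 and 54 cells that had other types' markers or at least 1% immunoglobulin counts, edgeR called 34 of 11105 genes (0.306%), 25 higher and 9 lower, and 26 of them were also called over all capillary cells. The lower ones include antibody genes, which give no test there because the cells had been filtered on antibody counts. Immunoglobulin counts were 9.98% and 9.50% of all counts of control and 3.11% and 2.86% of those of CCl4 kept cells. The part of free antibody RNA in the capillary values was not tested.

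Several other calls rested on few cells or were lost in some alternative fits. The log2 fold change of Ly6c2 was 1.70 (edgeR adjusted p = 0.00287), from 16.3 and 20.1 to 69.1 and 49.0 CPM, but 3 cells held 79.4% and 75.2% of the CCl4 counts, and it was -0.27 without cells with other types' markers. Ly6c2 is nearly identical in sequence to Ly6c1, which capillary cells express strongly, and a split of reads between them was not tested. C3, a complement component, stood at 10.5 and 10.9 against 48.3 and 45.95 CPM, with 87.1% and 96.7% of the CCl4 counts in 3 cells. Cxcl2, a neutrophil chemokine, fell from 84.3 and 41.9 to 13.9 and 26.2 CPM, with 80.7% and 81.0% of the control counts in 3 cells. The Cxcl2 call was lost in 6 of 14 alternative fits, among them without likely doublets (-1.54) and without other types' cells (-0.18). H2-Ab1, an MHC class II chain, fell from 87.0 and 86.0 to 24.5 and 45.2 CPM. It was still called without other types' cells, at 52.9 and 43.8 against 22.7 and 20.9 CPM, but not without likely doublets (log2 fold change -1.18), nor when arterial-marker or epithelial-marker cells were removed as well. Mt1, a metallothionein, rose from 27.2 and 22.2 to 60.7 and 48.6 CPM, and lost the call in 6 of 14 alternative fits, among them without CCl4 1 (0.97), without likely doublets and without other types' cells.

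With 0.268% of all genes called, lists of this size would hold about no call at that share, so their counts say little and the values are given. In the VEGF, angiopoietin and apelin list, 17 of 19 genes were tested and none was called, with a median log2 fold change of 0.02, against -0.0009 over all genes. Nrp1, the VEGF co-receptor, stood at 910, 1025, 942 and 1016 CPM, and Tie1, the orphan partner of the angiopoietin receptor, at 357, 445, 374 and 342. S1pr1, the sphingosine-1-phosphate receptor that steadies junctions, stood at 407 and 431 against 533 and 483 CPM. Among ligands, Pdgfb, which recruits pericytes, stood at 403 and 399 against 352 and 297 CPM without passing the test (edgeR adjusted p = 0.488). Apln, the ligand secreted by tip cells, was low, at 12.3 and 16.8 against 28.5 and 31.1 CPM (edgeR adjusted p = 0.181). Of the 19 tip cell and sprouting genes tested, 0 were called and 10 lay higher without overlap (19.4% of all genes tested did so). Col4a1, a collagen IV chain of basement membrane, stood at 1184, 1206, 1223 and 1323 CPM. The median of that list was 0.09.

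Of 20 junction genes tested 0 were called by edgeR, 10 had positive and 10 negative values, with a median of -0.03. Ptprb, the phosphatase that holds Cdh5 in place, stood at 1124, 1193, 1215 and 1302 CPM. Ctnnb1, the catenin that binds Cdh5, stood at 979 and 906 against 839 and 827. The 10 caveola genes had a median of -0.06, with Cav1, the caveolar coat protein, at 1218, 1190, 1251 and 1211 CPM. Cavin1, its partner, stood at 784 and 910 against 685 and 667 CPM (edgeR adjusted p = 0.411). DESeq2 called it among the 579 genes to which it gave an adjusted p (adjusted p = 0.0342). Of the 23 fenestrated and continuous capillary genes 1 was called, Tmem252. Fabp4, the lipid chaperone of capillary endothelium, stood at 6033, 5854, 5912 and 5292 CPM, and the 26 lipid handling genes had a median of 0.10 with 0 called. Slco2a1, a prostaglandin carrier, stood at 455 and 458 against 543 and 477 CPM, and 0 of 17 transporter genes were called.

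Of 14 Notch pathway genes 0 were called. Notch1 stood at 289, 282, 275 and 280 CPM, while Hey1, a Notch target of arteries, stood at 124 and 118 against 155 and 164 (edgeR adjusted p = 0.342). The 22 arterial genes had a median of -0.05, with Cxcl12, the chemokine of capillary and arterial endothelium, at 1426, 1559, 1486 and 1395 CPM. Of 22 BMP and TGF-beta genes 0 were called, with Id1, a BMP target, at 477, 459, 446 and 463 CPM. The shear stress genes Klf2 and Klf4 stood at 676, 680, 667 and 590 and at 1610, 1506, 1483 and 1576 CPM. Of 16 vasoactive genes 0 were called. Edn1, endothelin, stood at 345 and 351 against 495 and 426 CPM (adjusted p = 0.278 in edgeR, 0.0286 over 579 genes in DESeq2). Of 20 pan-endothelial genes outside the rule, Sox18 was the 1 called, and Podxl, a glycoprotein of the luminal surface, stood at 1721 and 1807 against 1479 and 1552 CPM (edgeR adjusted p = 0.56).

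Of 22 MHC class I presentation genes 20 had negative values, 12 lay lower without overlap (19.1% of all genes did so), and the median was -0.19. The members with the highest CPM overlapped between groups: H2-D1, a classical MHC class I chain, stood at 1880, 1684, 1789 and 1819 CPM and B2m at 4059, 3491, 3850 and 3410. Of 48 interferon response genes 36 had negative values and 22 lay lower without overlap, with a median of -0.25 and 0 called. Ly6e and Ifitm3, the members with the highest CPM, stood at 2924, 2784, 2806 and 2610 and at 2492, 2152, 2627 and 2444 CPM. Rsad2, an antiviral enzyme that capillary cells held at more than 10 times the venular CPM, stood at 397 and 442 against 312 and 265 CPM. Its adjusted p was 0.0968 in edgeR and 0.00248 over 579 genes in DESeq2. The number of interferon genes called ranged from 0 to 6 over the alternative fits.

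Of 20 heat shock genes 17 had positive values and 14 lay higher without overlap, against 19.4% of all genes tested, with a median of 0.26 and 0 called in the edgeR fit over all capillary cells. Over the alternative fits the number called ranged from 0 to 4. Hspa8, the constitutive cytosolic chaperone, stood at 2602 and 2375 against 3430 and 3356 CPM. Its edgeR adjusted p was 0.059, and 0.0258 without the cells with other types' markers. Hsp90aa1 stood at 3465 and 3208 against 4276 and 4084 CPM. Among the 579 genes to which it gave an adjusted p, DESeq2 called Hsp90aa1, Hspa8, Dnaja1 and Hsph1 (adjusted p = 0.00347 for Hsp90aa1). Hspa1a, the inducible chaperone that dissociation of tissue is known to raise, stood at 7083, 5815, 6871 and 6458 CPM, with overlap between groups. Of 34 immediate early genes, which dissociation also raises, 27 had positive values and 15 lay higher without overlap. Among them 0 were called and the median was 0.13, with Fos at 3238, 2750, 3443 and 3048 CPM. The part of dissociation in these values was not tested. Among the 19 glucocorticoid response genes tested, 16 had positive values and 11 lay higher without overlap. Their median was 0.34, and Mt1 was called. Cdkn1a, a cell cycle inhibitor, stood at 701 and 522 against 884 and 951 CPM, and its edgeR adjusted p of 0.0958 became 0.0431 without the cells with other types' markers.

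**Figure D5:**
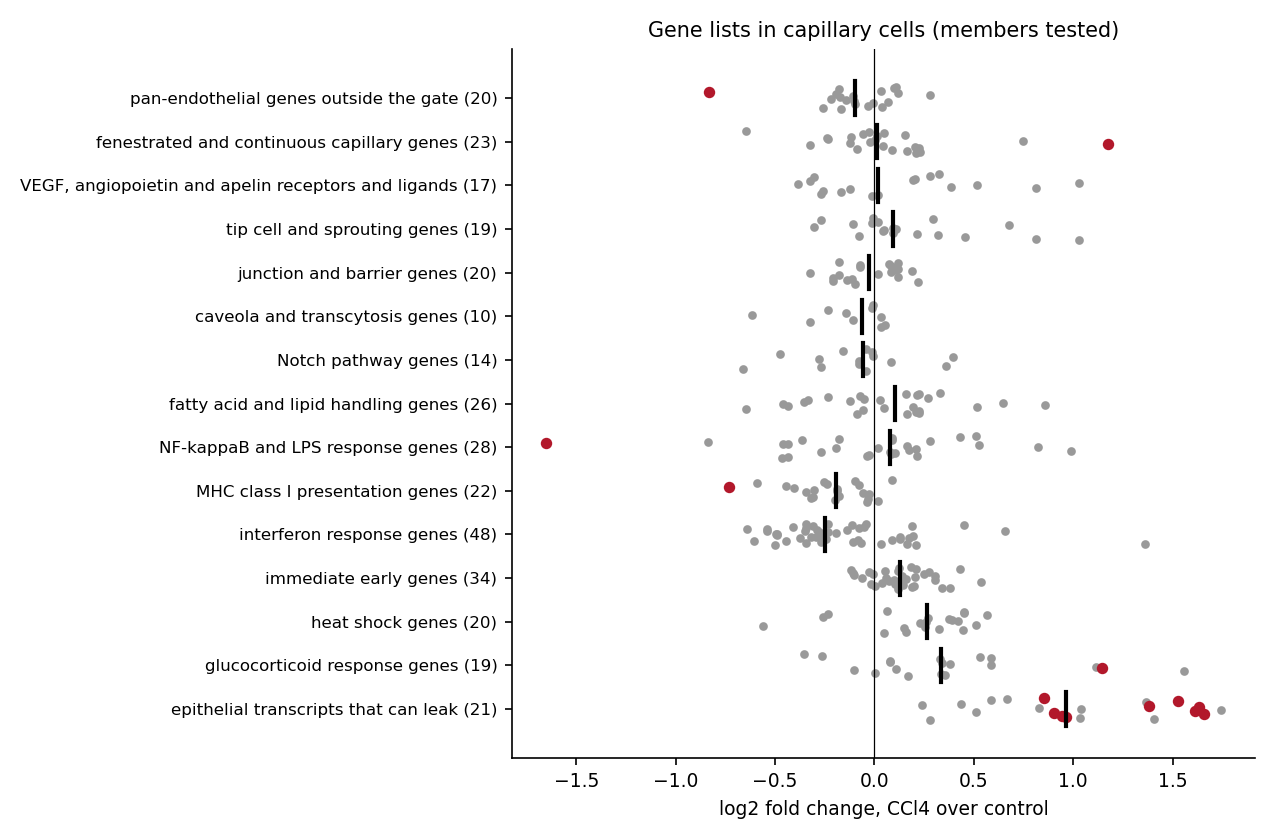
Log2 fold change of CCl4 over control (horizontal axis) of the tested members of 15 gene lists, with their number in brackets; red points were called and the black bar is the list's median. The endothelial lists centre near 0, the MHC class I and interferon lists lie to the left (medians -0.19 and -0.25), and the epithelial transcripts lie wholly to the right (median 0.97).

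Of 28 NF-kappaB and LPS response genes, 1 was called, Cxcl2, which rested on few cells as given above, and the median was 0.08. Nfkbia, the feedback inhibitor of the pathway, stood at 1501, 1385, 1561 and 1482 CPM. Socs3, the feedback inhibitor of Stat3, stood at 705 and 623 against 906 and 884 CPM without passing edgeR's test (adjusted p = 0.157). DESeq2 called it (adjusted p = 0.00248 over 579 genes). Of 19 leukocyte adhesion genes Cxcl2 was the 1 called, and Icam2, a ligand of leukocyte integrins, stood at 219 and 230 against 204 and 194 CPM. Of 29 cell cycle genes 0 were called, and of 25 hypoxia and glycolysis genes 0, with Gapdh at 365 and 355 against 481 and 477 CPM.

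Within the capillary cells, those with an Esm1 count differed from the rest in a few genes. This is a description over cells thinned to 1000 counts, chosen by 1 measured gene. The cells with lymphatic or arterial markers given above were included, and the comparison was not repeated without them. Gzmk, a granzyme, averaged 312 CPM in 565 Esm1 cells and 23.6 CPM in the others over the 4 libraries, higher in all 4. Penk, a preproenkephalin, averaged 67.5 against 3.72 CPM, higher in 3 libraries. Cells without Esm1 led in Lyve1 (228 against 3.64 CPM), Mmrn1 (210 against 3.26) and Ccl21a (126 against 3.23), the lymphatic genes, and in Aqp1, a water channel (445 against 62.8). They also led in Mgp (194 against 29.4) and Cldn5, the endothelial claudin (98.1 against 7.64).

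Compared with venular cells, also as a description, the capillary cells led in Igfbp3 (1400 against 30.7 CPM as the mean of 4 libraries), Cxcl12 (1453 against 54.5), the semaphorin Sema7a (392 against 3.97) and the retinol-binding protein Rbp7 (435 against 10.9). Rgcc, a regulator of the cell cycle, stood at 806 against 35.0 CPM, and the carbonic anhydrase gene Car4 at 198 CPM in capillary cells and at 0 in venular cells. Venular cells led in Madcam1, the addressin for gut-homing lymphocytes (994 against 2.85 CPM).

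The change with CCl4 was set against that in venular cells with an interaction term in edgeR. It called 5 of 10677 genes (0.0468%), with 352 at an unadjusted p under 0.05. The venular sums rested on 22, 17, 36 and 21 cells. Ackr1 and Selp, which the rule used, were 2 of the 5, and the others were Igha, Mgp and S100a4, none of which was called in all 7 alternative fits. In venular cells alone 0 of 2266 genes were called by edgeR, with 138 at an unadjusted p under 0.05. For the genes called in capillary cells outside the rule, Sox18 stood at 109 and 210 against 54.8 and 141 CPM in venular cells and Acer2 at 182 and 149 against 152 and 208, with overlap between groups in both.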

How the data were processed

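The deposited values are unnormalised counts of each gene in each barcode, made with PISA per the file headers, on GRCm38 per the submitters' processing notes; the aligner was not named in the labels. Cells were chosen by the rule in the report, and their counts summed per library. The members and the gene lists were chosen with earlier results of these data known. The sums were tested with edgeR 4.0.16 (R 4.3.3; TMM scaling, low-count filter, quasi-likelihood test, Benjamini-Hochberg adjustment, threshold 0.05), and CCl4 effects in capillary and venular cells were compared in an edgeR fit with library as block. The SE is derived from the test. DESeq2 1.42.0 was an alternative. The code was tested on simulated data. Shares were compared by exact permutation over the 4 libraries. Doublets were scored with Scrublet in scanpy 1.11.5 and the top 6% of cells removed in 1 alternative only. Shares of cells with a count were also taken after thinning to 1000 counts. Named genes were, among called genes of at least 50 CPM in either group, up to 12 in each direction by size of change, up to 3 called members of each list by p, the 4 members of each list with the highest CPM, the genes of the rule, up to 10 called interaction genes and the 15 leading genes of each description. Gene positions came from GENCODE M21 and promoters from RefSeq (GRCm38.p6).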

Additional observations from a re-analysis of the deposited data

Results flagged for a closer look

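In 3 genes outside the rule the change with CCl4 differed between capillary and venular cells by the interaction test of edgeR. The difference in log2 fold change, capillary minus venular, was 2.63 for Igha, 2.54 for Mgp and 9.91 for S100a4. A few cells held most of the capillary Igha counts in control 1, CCl4 1 and CCl4 2, as given above. With the rule on thinned cells the difference for Igha was -0.25. In capillary cells Mgp, a matrix inhibitor of calcification, stood at 285, 203, 374 and 307 CPM, and in venular cells at 214, 4024, 544 and 134 CPM, so that control 2 stood apart. S100a4 stood at 44.1, 66.8, 54.7 and 67.5 CPM in capillary cells and at 0, 211, 0 and 0 CPM in venular cells, so its value is a fitted fold against libraries at 0, rests on 1 library of 17 venular cells and gives no size of change. Without control 2 the difference was -0.27 for Mgp and 0.44 for S100a4. For Igha it was not called without CCl4 1.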

How the results depend on the processing

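Against 31 calls (26 higher, 5 lower), there were 58 with no low-count filter (42 higher, 16 lower), 92 with the rule on thinned cells (67 and 25), 18 when epithelial-marker cells were also left out (13 and 5), 266 without the 6 exclusion genes (190 and 76), and 61 to 152 when 1 library was left out, where the lone library of a group is assumed to vary like the others. Without other types' cells there were 25 higher and 9 lower. DESeq2 called 39 genes (25 higher, 14 lower) of the 579 to which it gave an adjusted p, 3 of them shared, and only 3 of the 31 had an adjusted p there. A replicate block gave 83 calls (62 higher, 21 lower). Libraries with the same number did not deviate together (r = 0.022 over 3518 genes), so the numbers do not show pairs.

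Ly6c2 turned to -0.10 (arterial-marker cells also out), -0.14 (epithelial-marker cells also out), -0.26 (thinned), -0.27 (other types' cells out) and -1.65 (no exclusion genes), C3 to -0.78 (thinned), -0.63 (other types' cells out) and -0.98 (no exclusion genes), and Cxcl2 to 0.42 (arterial-marker cells also out). Of 300 single-gene values for 24 genes, 251 held direction and call, 36 lost the call and 13 reversed. The 5 interaction calls became 2 on thinned cells and 1 to 27 with 1 library left out. On thinned cells Igha was -0.25, Mgp -0.27 and Selp 0.048, and with 1 library left out Mgp ranged from -0.27 to 4.36. The share of kept cells turned from -1.51 to 0.36 points without the exclusion genes. The share of endothelial cells turned from 0.19 to -0.15 points without doublets, to -0.082 with stricter cells, and ranged from -1.89 to 2.28 with 1 library left out. The causes were not tested. With 2 libraries a group, small changes were not detectable.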
